A study of Mus musculus with 6 samples.

Results

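The dual-specificity MAP kinase phosphatases described here are 8 genes, Dusp1, Dusp2, Dusp4, Dusp5, Dusp6, Dusp7, Dusp10 and Dusp16, taken by name from the 43432 gene IDs counted in neutrophils of mouse uterine tumours. All 8 were found and all 8 passed the filter on low counts. The neutrophils were Ly6Ghi CD11b+ CD45+ cells sorted from enzymatically disaggregated whole uteri of PRPL mice on the C57BL/6 strain, which carry Cre under the Pgr gene, active in cells that express the progesterone receptor. In the hyperoxia group, 3 libraries came from PRPL mice housed in a chamber at 60% oxygen over 10 days, between postnatal day 18 and postnatal day 28. In the normoxia group, 3 libraries came from PRPL mice of the same genotype, strain and age (4 weeks) kept in ambient oxygen. Both groups therefore carried the PRPL alleles, neither held mice without them, and the labels do not say whether a library is 1 animal or a pool.

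MAP kinases (ERK, JNK and p38) are switched on when an upstream kinase phosphorylates a threonine and a neighbouring tyrosine in their activation loop, and the phosphatases of this family switch them off by removing both phosphates. Dusp1, Dusp2, Dusp4 and Dusp5 encode nuclear enzymes that are themselves transcribed within minutes of a stimulus, Dusp6 and Dusp7 encode cytoplasmic enzymes that prefer ERK, and Dusp10 and Dusp16 encode enzymes directed at p38 and JNK. In myeloid cells the family is known for ending p38 and JNK signalling after microbial or stress stimuli, and Dusp1 is also a classic target of glucocorticoids.

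Libraries held 38683293 to 61715617 counts. Neutrophil markers were present in all 6: S100a8, an abundant neutrophil calcium-binding protein, stood at 13240 to 44970 CPM in hyperoxia and at 13886 to 21738 CPM in normoxia (CPM are counts scaled to a common library size after TMM normalization, and compare libraries for 1 gene). All 8 neutrophil markers were counted in every library, summing to 32703 to 99387 CPM in hyperoxia and 34652 to 53524 CPM in normoxia. They varied widely within hyperoxia: Ly6g, the gene of the sorted surface marker, had 196, 351 and 38.9 CPM in hyperoxia libraries 1, 2 and 3 and 146, 53.4 and 72.7 CPM in the normoxia libraries, and Retnlg ran from 531 to 8774 CPM in hyperoxia and from 610 to 1710 CPM in normoxia. Hyperoxia library 2 stood apart from the other 5, with a chi-square of its counts per degree of freedom between 524 and 803 against each of them, where the other pairs gave between 33.2 and 245.7. Markers of other cell types were also present. The 13 macrophage markers summed to 1921 to 3047 CPM in hyperoxia and 1414 to 1516 CPM in normoxia, the 9 MHC class II and dendritic cell markers to 698 to 2092 CPM and 473 to 513 CPM, and the 8 endothelial markers to 27.2 to 63.3 CPM and 8.87 to 14.2 CPM. The groups did not overlap in these 3 sums. Single genes of each list did overlap, among them Csf1r and Cd68 (macrophage), Itgax (dendritic cell) and Kdr (endothelial). In bulk RNA, a different number of cells of one type and a different amount of RNA per cell cannot be told apart. Smooth muscle markers (6 genes) summed to 24.4 to 50.4 CPM in hyperoxia and 15.6 to 22.2 CPM in normoxia, also without overlap. Stromal markers (7 genes) summed to 34.4 to 238 CPM in hyperoxia and 17.6 to 55.8 CPM in normoxia, with overlap. All 6 tested were higher at an unadjusted p under 0.05, where 9.10% of all genes were. DESeq2 called 5 of them higher, against 3.65% of all genes. No gene of these 5 lists was at 0 in all libraries. The 8 mast cell and eosinophil markers, mostly Siglecf, were lower, at 41.5 to 101 CPM in hyperoxia and 109 to 184 CPM in normoxia, without overlap. Epithelial markers (6 genes) summed to 189, 10.8 and 152 CPM in hyperoxia libraries 1, 2 and 3. In the normoxia libraries they summed to 63.2, 93.3 and 139 CPM. T and NK cell markers (9 genes) and B cell markers (5 genes) overlapped between groups. The part of all these cells in the results below was not tested.

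Across all 12908 genes tested, edgeR's quasi-likelihood test called 0% higher and 0% lower at an adjusted p of 0.05, so none of the 8 phosphatases was called by it. At an unadjusted p under 0.05 it gave 1175 genes higher in hyperoxia (9.10%) and 505 lower (3.91%), and DESeq2, which gave an adjusted p to 12638 of these genes, called 461 higher (3.65%) and 52 lower (0.411%). Of the 8 phosphatases, 2 were higher at an unadjusted p under 0.05 (Dusp10 and Dusp16), 1 was called higher by DESeq2 (Dusp10) and none was lower by either measure. In CPM, the groups did not overlap, with hyperoxia higher, for 1 phosphatase, Dusp10, against 9.57% of all genes. They did not overlap with hyperoxia lower for 0 phosphatases, against 10.3% of all genes. Differences lay above 0 for 4 phosphatases and below 0 for the other 4, with a median of 0.05 on the log2 scale, where 53.7% of all genes lay above 0 and 46.3% below it, with a median of 0.04.

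Promoter sequence is shown for 4 of the genes: Dusp1 and Dusp5, which held the highest levels of the family, and Dusp10 and Dusp16, the pair with the lowest p-values between the groups. Sequences come from RefSeq on GRCm38.p6, where 7 of the 8 members had an entry, and are the bases upstream of the RefSeq transcription start, 5′ to 3′ on the gene's own strand, leaving out bases of annotated exons. Capitals mark TGACG on either strand (CGTCA on the printed one), the core of the cAMP response element that CREB and ATF factors bind. The Dusp1 stretch is chr17:26508520-26508722 (minus strand), the Dusp5 stretch chr19:53528895-53529108 (plus strand), the Dusp10 stretch chr1:184034131-184034380 (plus strand) and the Dusp16 stretch chr6:134792629-134792878 (minus strand). The stretches of Dusp1 and Dusp10 lie inside the spans of these genes in GENCODE M21, which include transcripts that start farther upstream.
Dusp1: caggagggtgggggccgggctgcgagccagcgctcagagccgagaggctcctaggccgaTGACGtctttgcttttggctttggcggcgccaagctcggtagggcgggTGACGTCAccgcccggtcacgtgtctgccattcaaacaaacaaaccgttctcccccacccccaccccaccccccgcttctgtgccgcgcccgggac
Dusp5: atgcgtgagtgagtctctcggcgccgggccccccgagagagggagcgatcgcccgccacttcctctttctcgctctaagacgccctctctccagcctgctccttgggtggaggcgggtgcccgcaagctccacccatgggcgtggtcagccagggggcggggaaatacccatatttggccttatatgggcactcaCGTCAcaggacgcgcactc
Dusp10: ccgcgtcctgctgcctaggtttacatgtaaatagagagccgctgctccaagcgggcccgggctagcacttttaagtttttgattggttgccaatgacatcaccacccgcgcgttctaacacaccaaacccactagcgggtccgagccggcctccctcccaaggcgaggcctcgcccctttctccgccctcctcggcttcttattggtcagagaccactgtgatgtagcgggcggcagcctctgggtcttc
Dusp16: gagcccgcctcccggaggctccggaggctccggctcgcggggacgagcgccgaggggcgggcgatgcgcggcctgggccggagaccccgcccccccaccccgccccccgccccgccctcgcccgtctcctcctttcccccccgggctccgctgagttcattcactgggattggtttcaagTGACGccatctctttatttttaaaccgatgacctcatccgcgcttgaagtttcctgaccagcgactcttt

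The 250 bases upstream of the start were searched on both strands in these genes and in 32851 promoters of 27025 genes. TGACG was found in 17.8% of all promoters. Dusp1 held 3 matches, of which 2, on opposite strands, overlap as the full palindrome TGACGTCA, 143 bases upstream of the start. That palindrome was found in 1.55% of all promoters and in no other member searched. Dusp5 held 1 match and Dusp16 held 1 match to TGACG, while Dusp2, Dusp6, Dusp7 and Dusp10 held 0. The E-box CACGTG, found in 6.02% of promoters, occurred in Dusp1 and Dusp2. The GC box GGGCGG, found in 32.7% of promoters, occurred in Dusp1, Dusp2, Dusp5, Dusp10 and Dusp16, and the TATA box letters TATAAA, found in 12.4%, in none of the 7. A CArG box, the site of serum response factor, was found in 1.47% of promoters, and Dusp5 held 2 of them 82 and 72 bases upstream. The printed stretches had a GC content of 68.0% (Dusp1), 65.0% (Dusp5), 59.6% (Dusp10) and 68.4% (Dusp16), against a median of 52.4% over all promoters. These are matches of letters, with no measurement of binding in this study.

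Among the nuclear inducible enzymes, Dusp1 dominated the family. The gene (ENSMUSG00000024190, chr17:26505590-26562128, minus strand of GRCm38, protein coding) had 23933, 11286.5 and 20388 CPM in hyperoxia libraries 1, 2 and 3, against 24748, 25446 and 23777 CPM in normoxia libraries 1, 2 and 3. The 3 normoxia libraries lay close together, hyperoxia library 2 was the lowest of the 6, and hyperoxia library 1 lay inside the normoxia range. The mean level was 18536 ± 6523 CPM over the hyperoxia libraries and 24657 ± 839 CPM over the normoxia libraries (SD, 3 libraries each), and the log2 difference was -0.41 (SE 0.31, 95% interval -1.12 to 0.30, edgeR adjusted p = 0.615). Without hyperoxia library 2 that difference was -0.13. As a plain share of all counts, without TMM scaling, Dusp1 made up 2.14%, 1.17% and 2.16% of the hyperoxia libraries and 2.36%, 2.70% and 2.39% of the normoxia libraries. On that scale the groups did not overlap, and edgeR with library sizes alone gave a difference of -0.44 on the log2 scale with an adjusted p of 0.544. How many of all genes do not overlap on that scale was not counted. In TMM-scaled CPM, where Dusp1 overlapped, 10.3% of all genes were lower in hyperoxia without overlap. The gene ranked between 3 and 6 of all genes by counts in every library. An exon of Dusp1 shares 11 bases with Ergic1 on the opposite strand.

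Dusp5, a nuclear enzyme selective for ERK (ENSMUSG00000034765, chr19:53529109-53542431, plus strand), had 859, 476 and 581 CPM in the hyperoxia libraries, against 847, 812 and 767 CPM in the normoxia libraries. The normoxia values again sat in a narrow band, with hyperoxia library 1 just above it and the other 2 hyperoxia libraries below it. Its mean was 639 ± 198 CPM under hyperoxia, against 809 ± 39.9 CPM under normoxia (SD, 3 libraries each), for a log2 difference of -0.34 (SE 0.26, 95% interval -0.93 to 0.25, edgeR adjusted p = 0.622). DESeq2 called Dusp5 lower (log2 difference -0.63, adjusted p = 0.0305) when hyperoxia library 1 was left out, and did not call it with all 6 libraries (adjusted p = 0.695). Dusp5 shares 547 exon bases with the antisense gene AC137853.2, and since the counting strand is not known, reads of that gene could have been counted here.

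Dusp2, a nuclear enzyme found mainly in blood cells (ENSMUSG00000027368, chr2:127336159-127338376, plus strand), was the most variable of the abundant members. Its values were 114, 125 and 575 CPM for hyperoxia libraries 1 to 3, against 281, 520 and 572 CPM in the normoxia libraries. Hyperoxia libraries 1 and 2 were the lowest of the 6 and hyperoxia library 3 was the highest, so the hyperoxia range enclosed the normoxia range. Group means were 272 ± 263 CPM under hyperoxia and 458 ± 155 CPM under normoxia (SD, 3 libraries each), and the log2 difference was -0.75 (SE 0.61, 95% interval -2.15 to 0.65, edgeR adjusted p = 0.647). Its biological coefficient of variation, 52.1%, lay at the 87th percentile of all genes tested, where the other 7 members had 26.0% to 47.8%. The difference turned on hyperoxia library 3: without that library it was -1.93 (edgeR adjusted p = 0.156; DESeq2 -1.91, adjusted p = 1.2e-05), and without hyperoxia library 1 it was -0.37.

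Dusp4, a nuclear enzyme acting on ERK and JNK (ENSMUSG00000031530, chr8:34807297-34819894, plus strand), was close to the limit of detection, with 27, 23 and 55 counts in the hyperoxia libraries and 13, 29 and 17 counts in the normoxia libraries. These correspond to 0.683, 0.360 and 1.158 CPM in hyperoxia and 0.304, 0.643 and 0.437 CPM in normoxia, and the groups overlapped. The log2 difference of 0.66 had a wide 95% interval, -0.63 to 1.95 (SE 0.56, edgeR adjusted p = 0.665), and was 0.16 without hyperoxia library 3.

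**Figure D1:**
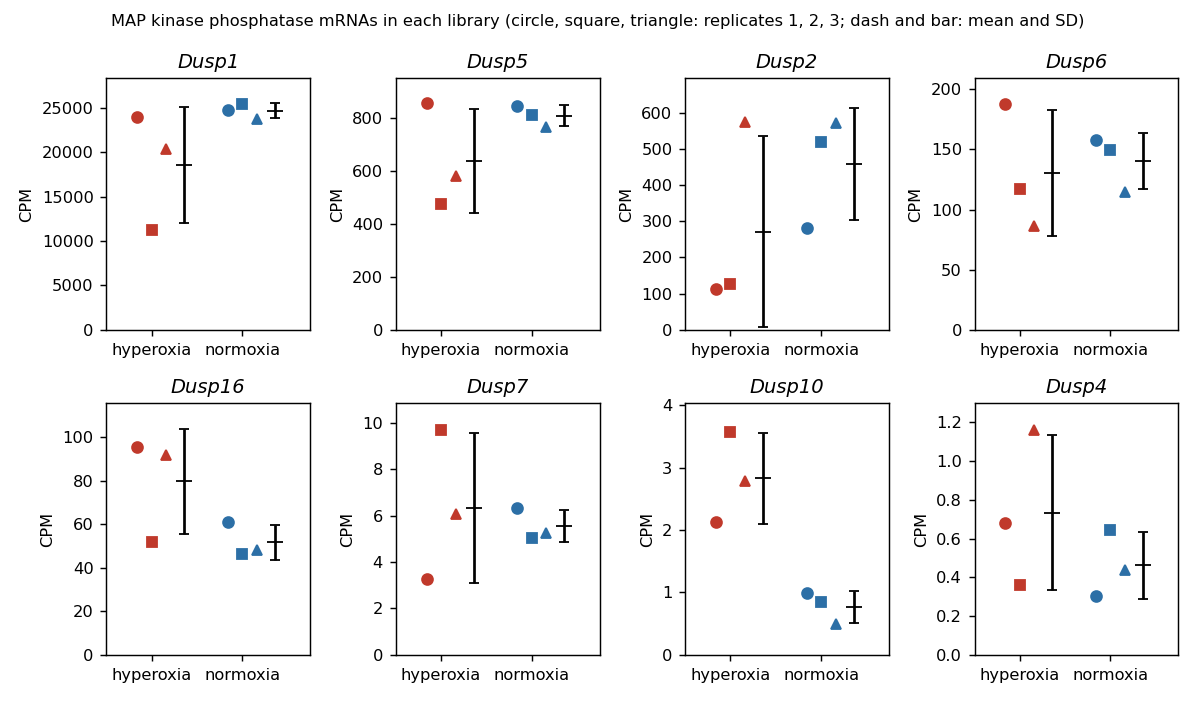
CPM (TMM-scaled, linear axes from 0) of the 8 phosphatases, 1 panel per gene, with hyperoxia libraries in red and normoxia libraries in blue, 1 marker per library, and the mean ± SD beside each group (n = 3 each). Dusp10 is the 1 gene whose groups are separate in CPM, from 2.13 to 3.57 CPM in hyperoxia and from 0.488 to 0.983 CPM in normoxia, while in Dusp1, Dusp5 and Dusp2 the hyperoxia libraries spread more widely than the normoxia libraries.

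The cytoplasmic, ERK-selective enzymes Dusp6 and Dusp7 were not called different by either test. Dusp6, a feedback inhibitor that ERK signalling itself induces (ENSMUSG00000019960, chr10:99263231-99267489, plus strand), had 188, 117 and 86.3 CPM in the hyperoxia libraries and 157, 150 and 114 CPM in the normoxia libraries. Hyperoxia held both the highest and the lowest library. The log2 difference was -0.11 (SE 0.30, 95% interval -0.80 to 0.59, edgeR adjusted p = 0.917) and turned to 0.12 without hyperoxia library 3. Dusp7, its close relative (ENSMUSG00000053716, chr9:106368632-106375724, plus strand), had 3.26, 9.70 and 6.06 CPM in the hyperoxia libraries and 6.32, 5.04 and 5.24 CPM in the normoxia libraries. Here hyperoxia library 1 was the lowest and hyperoxia library 2 the highest, the reverse of their order for Dusp6. The log2 difference was 0.20 (SE 0.38, 95% interval -0.66 to 1.06, edgeR adjusted p = 0.871), and -0.23 without hyperoxia library 2.

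Dusp10 and Dusp16, the enzymes directed at p38 and JNK, were both higher in hyperoxia at an unadjusted p under 0.05, and Dusp10 was the 1 member called by DESeq2. In mice, loss of Dusp10 is known to raise cytokine and oxidant production by innate immune cells. The gene (ENSMUSG00000039384, chr1:184013302-184075636, plus strand) had 84, 228 and 132 counts in the hyperoxia libraries and 42, 38 and 19 counts in the normoxia libraries. These were 2.13, 3.57 and 2.78 CPM in hyperoxia and 0.983, 0.843 and 0.488 CPM in normoxia. All 3 hyperoxia libraries lay above all 3 normoxia libraries. The mean of Dusp10 was 2.83 ± 0.725 CPM under hyperoxia and 0.772 ± 0.255 CPM under normoxia (SD, 3 libraries each), which gave a log2 difference of 1.87 (SE 0.39, 95% interval 0.97 to 2.76, edgeR unadjusted p = 0.00122, adjusted p = 0.133, rank 118 of all genes by p). DESeq2 gave 1.88 with an adjusted p of 0.00104, and called Dusp10 with each library left out in turn, with log2 differences of 1.63 to 2.08 and adjusted p-values of 0.000554 to 0.0262. Over the edgeR and limma settings tried the difference ranged from 1.68 to 2.14 and its adjusted p from 0.0356 to 0.542. Among genes of average log2 CPM of at least 3, the library-to-library pattern closest to that of Dusp10 was that of C3ar1, the receptor of complement fragment C3a, followed by those of Msr1, a scavenger receptor in the macrophage marker list, and Nt5dc2. These neighbours were looked up after the values of Dusp10 had been seen. Of the 13 macrophage markers, 10 were higher in hyperoxia at an unadjusted p under 0.05, where 9.10% of all genes were. DESeq2 called 9 of them higher, against 3.65% of all genes. Csf1r (log2 difference -0.005) and Cd68 (0.06), of the same list, lay near 0. Other lists were higher too at an unadjusted p under 0.05: 7 of 8 endothelial, 6 of 6 stromal and 5 of 6 smooth muscle markers tested. So were 6 of 8 MHC class II and dendritic cell markers tested. The part of RNA of macrophages or of these other cells in the Dusp10 difference was not tested.

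Dusp16, a phosphatase that moves between cytoplasm and nucleus (ENSMUSG00000030203, chr6:134715468-134792625, minus strand), was far more abundant than Dusp10, with a mean over the 6 libraries of 17.5 TPM against 1.20 TPM on a scale corrected for gene length. It had 95.5, 52.0 and 91.7 CPM in the hyperoxia libraries, against 60.9, 46.2 and 47.9 CPM in the normoxia libraries. Hyperoxia libraries 1 and 3 lay above every normoxia library, and hyperoxia library 2 lay inside the normoxia range. Its means were 79.7 ± 24.1 CPM under hyperoxia and 51.7 ± 8.04 CPM under normoxia (SD, 3 libraries each), for a log2 difference of 0.63 (SE 0.27, 95% interval 0.01 to 1.24, edgeR unadjusted p = 0.0478, adjusted p = 0.379; DESeq2 adjusted p = 0.314). Without hyperoxia library 1, hyperoxia library 3, normoxia library 2 or normoxia library 3 the edgeR difference was 0.50, 0.51, 0.54 and 0.64, in that order, and the unadjusted p was 0.115, 0.121, 0.151 and 0.111, no longer under 0.05. Without hyperoxia library 2 the difference was 0.88 with an edgeR adjusted p of 0.144, and DESeq2 then called it (0.85, adjusted p = 0.00912).

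**Figure D2:**
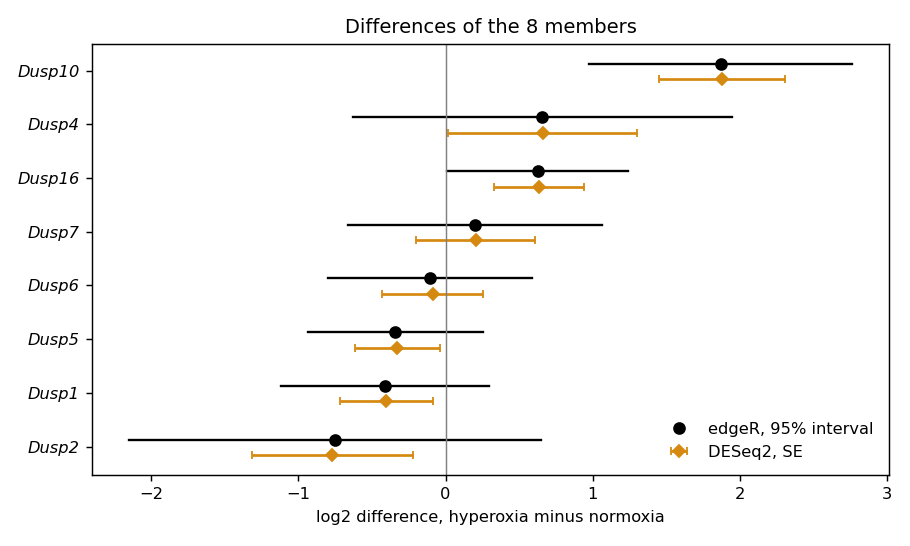
Log2 difference, hyperoxia minus normoxia, of each phosphatase, with the edgeR estimate and its 95% interval in black and the DESeq2 estimate and its SE in orange, ordered from the highest difference at the top. The edgeR intervals of Dusp10 (0.97 to 2.76) and Dusp16 (0.01 to 1.24) lie above 0 and those of the other 6 genes span it.

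Levels between genes were compared per length, in TPM (counts divided by the union of exon lengths and scaled to a common sum). Over the 6 libraries the mean level was 13695 TPM for Dusp1, 610 TPM for Dusp5, 395 TPM for Dusp2, 89.1 TPM for Dusp6, 17.5 TPM for Dusp16, 3.65 TPM for Dusp7, 1.20 TPM for Dusp10 and 0.466 TPM for Dusp4. Dusp1 stood 22.5 times above Dusp5, the next gene, and its lowest library (6285 TPM) was above the highest Dusp5 library (764 TPM). Steps whose ranges did not overlap were also those from Dusp6 to Dusp16 and from Dusp16 to Dusp7. The ranges of Dusp5 and Dusp2 overlapped, and Dusp5 was above Dusp2 in 5 of 6 libraries. Dusp2 and Dusp6 overlapped too, with Dusp2 above in 5 of 6. The ranges of Dusp7 and Dusp10, and of Dusp10 and Dusp4, overlapped although the order within a library held in 6 of 6. Group means for Dusp1 were 11372 ± 4414 TPM in hyperoxia and 16019 ± 1613 TPM in normoxia (SD, n = 3 each). On this scale, which like the plain share of counts carries no TMM factor, all 3 hyperoxia libraries of Dusp1 (6285 to 14197 TPM) lay below all 3 normoxia libraries (15053 to 17881 TPM). The share of all genes that are apart in TPM was not counted. At the low end, Dusp7, Dusp10 and Dusp4 stayed under 6 TPM in all libraries.

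**Figure D3:**
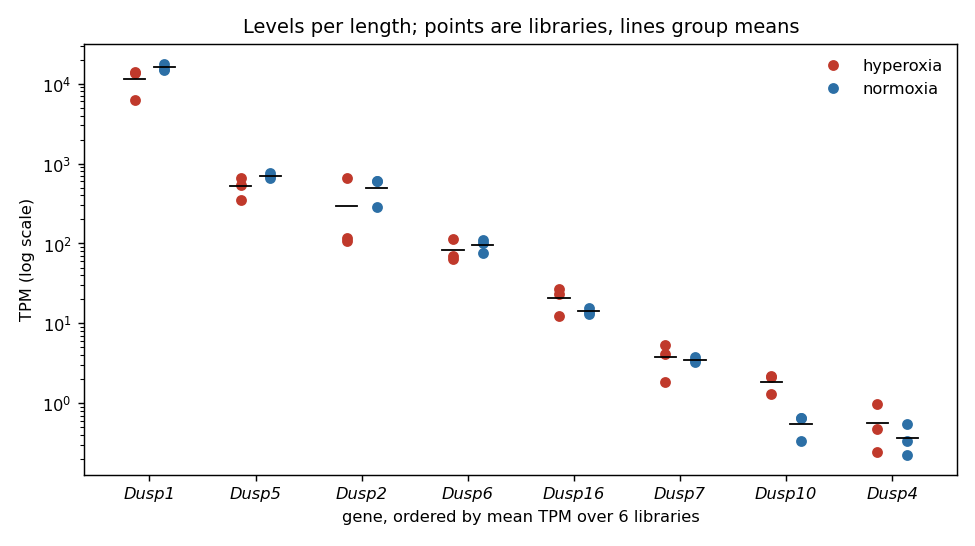
TPM on a log axis for the 8 phosphatases, ordered by their mean over 6 libraries, with hyperoxia libraries in red left of normoxia libraries in blue and a line at each group mean. Levels run from 13695 TPM for Dusp1 to 0.466 TPM for Dusp4, and the groups are fully apart for Dusp10, higher in hyperoxia, and for Dusp1, lower in hyperoxia on this scale without TMM factors. The share of all genes apart on this scale was not counted.

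Within a library, the family can be described by the share of its summed TPM that each member takes, a measure that does not depend on the scaling of libraries but does depend on the level of Dusp1. Dusp1 took 92.4 ± 1.21% in hyperoxia and 92.4 ± 0.720% in normoxia (SD, n = 3 each). Dusp5 took 4.396 ± 0.852% and 4.06 ± 0.184%, Dusp2 2.23 ± 1.83% and 2.84 ± 0.981%, and Dusp6 0.732 ± 0.302% and 0.556 ± 0.0818%, in hyperoxia and normoxia in that order, and the groups overlapped for all 3. For Dusp16 the shares were 0.159%, 0.180% and 0.175% in the hyperoxia libraries and 0.0974%, 0.0712% and 0.0786% in the normoxia libraries. Every hyperoxia library held a larger share of Dusp16 than any normoxia library. The denominator of these shares is mostly Dusp1, and the family summed to 14535, 6845 and 15499 TPM in the hyperoxia libraries and to 16147, 19378 and 16473 TPM in the normoxia libraries. In hyperoxia library 2, where Dusp16 itself was inside the normoxia range in CPM, the larger share goes with that low total, and the same holds for Dusp4. The means of 0.171 ± 0.0108% in hyperoxia and 0.0824 ± 0.0135% in normoxia gave an exact two-sided permutation p of 0.1, the smallest that 3 against 3 libraries can give, and 0.267 adjusted over the 8 members. Shares of Dusp10 (0.0181 ± 0.0119% in hyperoxia, 0.00314 ± 0.00100% in normoxia) and of Dusp4 (0.00436 ± 0.00168% in hyperoxia, 0.00208 ± 0.000718% in normoxia) also did not overlap and had the same exact permutation p. For the other 5 members the exact permutation p was 0.5 to 1.

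Since Dusp1 weighs so heavily, the shares were also taken over the other 7 members. Dusp5 then held 59.2 ± 15.9% in hyperoxia and 54.2 ± 7.80% in normoxia, and Dusp2 held 27.8 ± 20.4% and 36.9 ± 9.84%. Between libraries these 2 traded places: Dusp5 held 72.6% and Dusp2 11.9% in hyperoxia library 1, while Dusp5 held 41.6% and Dusp2 50.9% in hyperoxia library 3. In all 3 normoxia libraries Dusp5 stayed above Dusp2. Dusp16 held 2.28 ± 0.249% of that total in hyperoxia and 1.11 ± 0.288% in normoxia (SD, n = 3 each). That total is mostly Dusp5 and Dusp2, and Dusp5 was at its lowest, 355 TPM, in hyperoxia library 2. In that library Dusp16 itself was inside the normoxia range in CPM, so its share there again depends on a low denominator.

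The members did not vary as one block. By the root mean square distance between log2 CPM profiles, each centred on its own mean over the 6 libraries, the closest pair was Dusp1 and Dusp5 (0.174), followed by Dusp5 and Dusp6 (0.267), and the farthest was Dusp2 and Dusp10 (1.76). Dusp1, Dusp5 and Dusp6 were each lower in hyperoxia library 2 than in hyperoxia library 1, by 0.89 below the 6-library mean for Dusp1 and 0.57 below it for Dusp5. Dusp7 and Dusp10 were at their highest in that same library, 0.78 and 1.28 above their means. The 6 points of each profile share library preparation and depth, and these distances are descriptions with no test.

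**Figure D4:**
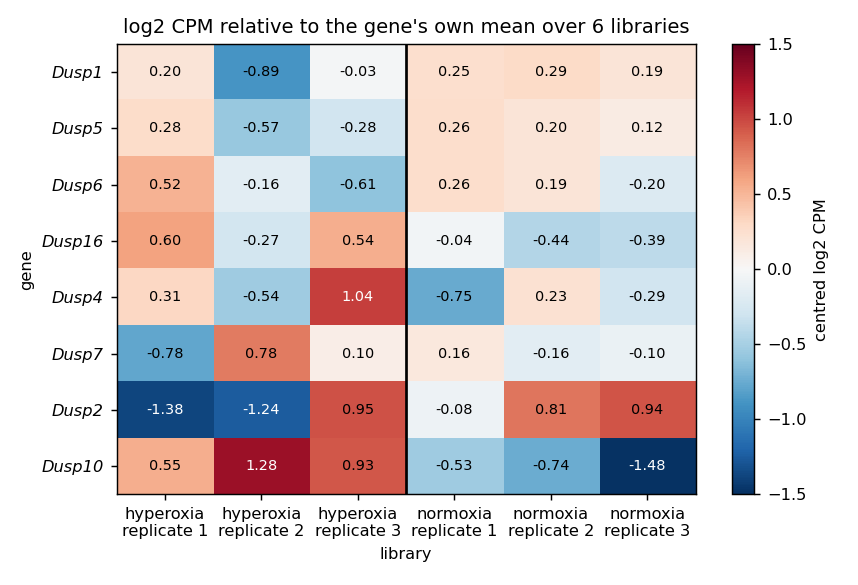
Log2 CPM of each phosphatase in each library, hyperoxia libraries on the left and normoxia on the right, centred on the gene's own mean over the 6 libraries, with red above and blue below that mean. Dusp10 is above its mean in all 3 hyperoxia libraries (0.55 to 1.28) and below it in all 3 normoxia libraries, while Dusp1 and Dusp5 dip mainly in hyperoxia library 2 (-0.89 and -0.57).

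Among 5168 genes of average log2 CPM of at least 3, the profile nearest to that of Dusp1 was that of Ier5, an immediate early gene, at a distance of 0.0447, followed by Ankrd12 (0.0695) and Npc1, a lysosomal cholesterol transporter (0.0736), where the median gene lay at 0.477. Ier5 had 838, 422 and 735 CPM in the hyperoxia libraries, against 923, 897 and 904 CPM in the normoxia libraries, with the dip in hyperoxia library 2 that Dusp1 had. Nearest to Dusp5 were Safb (0.0444), Faap100 (0.0545) and Itpr2 (0.0553), with a median gene at 0.398. Dusp2 had no neighbour as close: Cxcl1, a neutrophil-attracting chemokine, lay at 0.299, Mrpl52 at 0.318 and Rcan1 at 0.330, with a median gene at 1.04. Cxcl1 had 48.5, 45.9 and 206.7 CPM in the hyperoxia libraries and 65.0, 138 and 167 CPM in the normoxia libraries, low in hyperoxia libraries 1 and 2 and highest in hyperoxia library 3, as Dusp2 was.

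The sort followed enzymatic disaggregation of the uterus, a step known to induce Dusp1 and other immediate early genes. Of 17 such transcripts other than phosphatases of this family, 2 were higher in hyperoxia and 6 were lower at an unadjusted p under 0.05. Of all genes, 9.10% were higher and 3.91% lower by that measure. The 17 had a median log2 difference of -0.59, against 0.04 over all genes, with 3 above 0 and 14 below. Their summed level was 61119, 34166 and 50209 CPM in the hyperoxia libraries and 70353, 68324 and 68266 CPM in the normoxia libraries, which did not overlap, and hyperoxia library 2 was lowest, as for Dusp1. The p-ranked genes of this list were the heat shock genes Hspa1a (log2 difference 1.09, DESeq2 adjusted p = 0.0443) and Hspa1b (1.13, DESeq2 adjusted p = 0.0401), both called higher by DESeq2, and Atf3, a stress-induced transcription factor (-0.76, DESeq2 adjusted p = 0.0760). Also lower at an unadjusted edgeR p under 0.05 were Socs3 (-0.86), Ier2 (-0.59), Btg2 (-0.65), Egr1 (-0.90) and Jun (-0.82). DESeq2 called no gene of the list lower. Of all genes it called 3.65% higher and 0.411% lower. The part of the disaggregation step in the level of Dusp1 or of the other members was not tested.

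Transcripts that follow ERK activity were listed as a readout of the pathway. Of 16, 15 were tested, with 5 above 0, 10 below it and a median log2 difference of -0.45. At an unadjusted p under 0.05, 4 were higher and 3 lower, where 9.10% and 3.91% of all genes were. At an adjusted p of 0.05 edgeR called none. DESeq2 called 3 higher and 0 lower, against 3.65% and 0.411% of all genes. Fosl1, a late AP-1 subunit, had 218, 336 and 134 CPM in the hyperoxia libraries and 56.5, 21.6 and 35.6 CPM in the normoxia libraries. Every hyperoxia library was above every normoxia library, with a log2 difference of 2.60 (SE 0.44, edgeR adjusted p = 0.106, DESeq2 adjusted p = 7.61e-07). DESeq2 also called the growth regulator Myc (1.65, adjusted p = 0.00247) and Phlda1 (0.87, adjusted p = 0.0189). Fosb (0.62) was higher at an unadjusted edgeR p of 0.0281 and was not called by DESeq2 (adjusted p = 0.236). Its groups did not overlap, as for 9.57% of all genes in that direction. The 3 genes lower at an unadjusted p under 0.05 were Egr2 (-0.68), Ier2 (-0.59) and Egr1 (-0.90). For all 3 the groups did not overlap, as for 10.3% of all genes in that direction. The list shares 5 genes with the disaggregation list (Fos, Junb, Egr1, Ier2 and Ier3).

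Upstream of the phosphatases, no kinase of the cascade was called by edgeR or DESeq2 at an adjusted p of 0.05. Of 12 MAP kinases, 10 were tested and 1 was higher at an unadjusted p under 0.05, where 9.10% of all genes were: Mapk12, a p38 isoform, at 0.539 ± 0.186 CPM in hyperoxia and 0.201 ± 0.0809 CPM in normoxia (log2 difference 1.40, edgeR adjusted p = 0.350). Mapk6 (0.44) and Mapk13, another p38 isoform (0.89, edgeR adjusted p = 0.499), followed by p. Mapk13 had 158, 430 and 91.9 CPM in the hyperoxia libraries and 155, 99.2 and 113 CPM in the normoxia libraries, with hyperoxia library 2 far above the other 5. None of the 7 MAP2 kinases passed an unadjusted p under 0.05, and the 3 lowest p-values belonged to Map2k6 (0.93), Map2k5 (0.37) and Map2k7 (0.23).

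Of 13 MAP3 and Raf kinases, 12 were tested, 2 were lower and 0 higher by an unadjusted p under 0.05, where 3.91% of all genes were lower. Map3k8, the kinase that links Toll-like receptors to ERK, had 195, 140 and 160 CPM in the hyperoxia libraries, against 258, 260 and 256 CPM in the normoxia libraries. All hyperoxia libraries were below all normoxia libraries, with a log2 difference of -0.64 (SE 0.21, edgeR unadjusted p = 0.0131, adjusted p = 0.261, DESeq2 adjusted p = 0.127). Map3k2 (-0.47, edgeR adjusted p = 0.348) and Map3k7, the TAK1 kinase (-0.34, edgeR adjusted p = 0.489), did not overlap between groups either. Of the 12 tested, 3 were thus lower without overlap, against 10.3% of all genes. Downstream, none of 10 MAP kinase-activated kinases passed an unadjusted p under 0.05, and Mapkapk5 (-0.49), Rps6ka1 (0.70) and Mapkapk3 (0.33) had the lowest p-values.

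**Figure D5:**
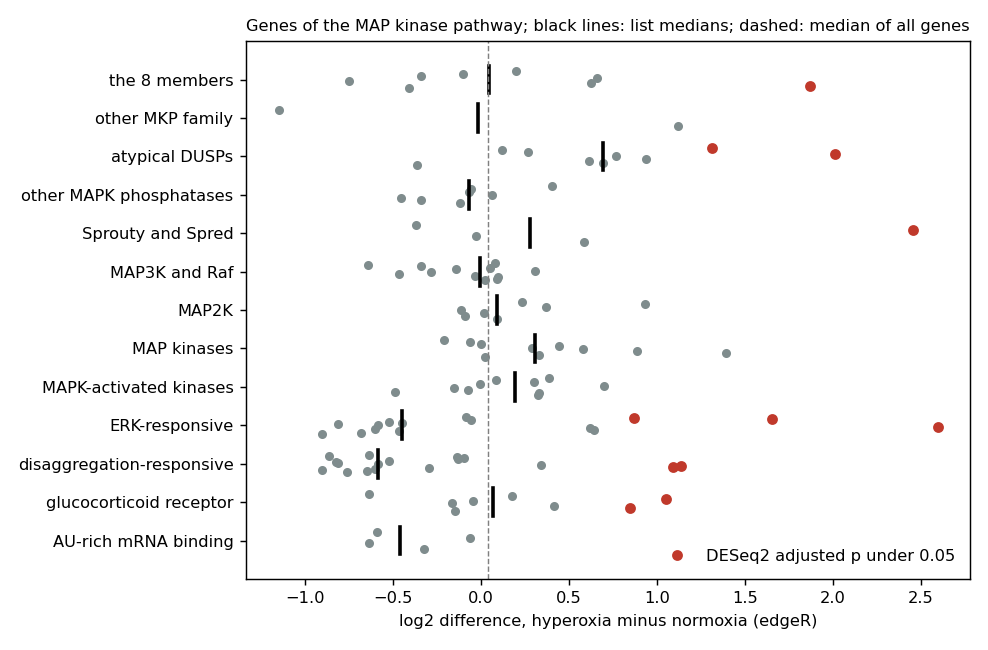
Log2 differences, hyperoxia minus normoxia (edgeR), of each tested gene in the lists around the MAP kinase cascade, 1 list per row, with a black line at the list's median, a dashed line at the median of all genes (0.04) and red for genes at a DESeq2 adjusted p under 0.05. The phosphatases are centred on 0.05 with Dusp10 apart at 1.87, and the disaggregation-responsive list has the lowest median (-0.59).

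Other inhibitors of the cascade were examined by fixed lists. Of the 3 remaining relatives of the family, Dusp9 had 0 to 13 counts a library and was not tested. Dusp8, which acts on JNK and p38, had 0.982 ± 0.118 CPM in hyperoxia and 0.450 ± 0.0106 CPM in normoxia (log2 difference 1.12, edgeR unadjusted p = 0.0207, adjusted p = 0.296). The catalytically inactive Styxl1 had 0.999 ± 0.271 CPM in hyperoxia and 2.21 ± 0.200 CPM in normoxia (-1.15, edgeR unadjusted p = 0.00990, adjusted p = 0.239). The groups did not overlap for either gene, as for 9.57% of all genes with hyperoxia higher and 10.3% with hyperoxia lower. DESeq2 called neither. Of 12 atypical dual-specificity phosphatases, 9 were tested and 2 were higher at an unadjusted p under 0.05, where 9.10% of all genes were. DESeq2 called both higher, against 3.65% of all genes. Dusp3, an ERK and JNK phosphatase, had 3.01, 4.70 and 4.08 CPM in the hyperoxia libraries and 1.194, 1.864 and 1.696 CPM in the normoxia libraries (log2 difference 1.31, edgeR adjusted p = 0.164, DESeq2 adjusted p = 0.0102). Dusp22, a regulator of JNK signalling, had 0.734, 3.39 and 1.64 CPM in the hyperoxia libraries and 0.445, 0.643 and 0.334 CPM in the normoxia libraries (2.02, edgeR adjusted p = 0.227, DESeq2 adjusted p = 0.0288). Dusp18 followed by p (0.94). For Dusp10, Dusp3 and Dusp22 alike, hyperoxia library 2 was the highest of the 6.

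Of 7 Sprouty and Spred genes, inhibitors that act on Ras and Raf, 4 were tested. Of these, 1 was higher at an unadjusted p under 0.05, where 9.10% of all genes were. DESeq2 called it too, against 3.65% of all genes. Spry1 had 0.835, 4.18 and 3.31 CPM in the hyperoxia libraries and 0.492, 0.532 and 0.488 CPM in the normoxia libraries, a log2 difference of 2.46 (SE 0.58, edgeR adjusted p = 0.152, DESeq2 adjusted p = 0.00164). Spred1 (0.59) and Spry2 (-0.37) were not called. Of 8 other phosphatases that act on MAP kinases, 7 were tested and none passed an unadjusted p under 0.05, with Ppm1d (-0.46), Ppm1b (-0.34) and Ptprr (0.40) lowest by p.

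Glucocorticoids and proteins that bind AU-rich mRNA are known inputs to Dusp1 mRNA, and a list was taken for each. The glucocorticoid list holds the receptor gene and other targets of the receptor, which are not themselves inputs to Dusp1. Of 8 glucocorticoid receptor genes and targets, 2 were higher at an unadjusted p under 0.05, where 9.10% of all genes were. DESeq2 called both higher, against 3.65% of all genes. The kinase gene Sgk1 had 154, 133 and 248 CPM in the hyperoxia libraries, against 82.1, 81.4 and 94.7 CPM in the normoxia libraries (log2 difference 1.05, edgeR adjusted p = 0.176, DESeq2 adjusted p = 0.0125). The chaperone gene Fkbp5 was the other (0.85, DESeq2 adjusted p = 0.0390). Klf9 followed by p (0.42). Tsc22d3 (0.18) also lay above 0, while Per1 (-0.05), Ddit4 (-0.15), the receptor gene Nr3c1 (-0.16) and Zbtb16 (-0.64) lay below it. With 4 genes above 0 and 4 below, the list's median was 0.07. Of the 4 genes for proteins that bind AU-rich mRNA, all lay below 0 with a median of -0.46, and none passed an unadjusted p under 0.05. Zfp36, whose protein destabilises such mRNAs, had 8828, 3112 and 6472 CPM in the hyperoxia libraries and 9797, 9063 and 9791 CPM in the normoxia libraries, again lowest in hyperoxia library 2 (log2 difference -0.64, edgeR adjusted p = 0.497). Zfp36l2 (-0.59) and Elavl1 (-0.32) came next.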

How the data were processed

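RNA of 6 neutrophil libraries was sequenced (Ovation/NexteraXT preparation, per the labels). The authors deposited raw counts per Ensembl gene, 1 table a library, without normalization. The submitters' processing notes name STAR 2.4.2a, DESeq2 1.16.1 and the build GRCm38. Which program counted the reads, with which strand setting and annotation release, is not given in the sources used here, so that reads of overlapping antisense genes cannot be told apart.

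Of 43432 IDs, 42548 matched GENCODE M21, which gave symbols, coordinates and exon lengths. The 884 others were kept by ID. Libraries were grouped by the labelled housing. Nothing says that the libraries are separate animals, so a p-value here measures the spread between 3 libraries a group, part of which may be technical. Replicate numbers are in accession order and pair nothing. Every pair of libraries differed beyond sampling noise.

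Counts were tested with edgeR 4.0.16 in R 4.3.3 (filterByExpr, which kept 12908 of 23147 genes with a count, TMM, robust quasi-likelihood, two-sided, Benjamini-Hochberg over all genes tested). The common coefficient of variation was 36.3%, and a log2 difference had a median SE of 0.34. DESeq2 1.42.0 (run on the same genes, 12638 of which received an adjusted p) and limma 3.58.1 were alternatives, as were other scalings, filters, a threshold of 0.1 and leaving out each library. The fit was tested on simulated data. Shares were tested by exact permutation with scipy 1.17.1. TPM were computed from counts and the union of exon lengths. PCR copies are not independent molecules, so counts overstate the molecules sampled.

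All 8 members were named. Of each pathway list, the 3 tested genes of lowest p and those called by DESeq2 were named. In the ERK and disaggregation lists, the genes higher or lower at an unadjusted p under 0.05 were named too, and in the glucocorticoid list all genes were named. Profile neighbours were printed for the 3 members of highest TPM, with Dusp10 added after its values were seen. Members and lists were chosen with earlier results of these data known. Proteins were not analysed here. One part of the mice's genotype is not reported here.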

Additional observations from a re-analysis of the deposited data

How the results depend on the processing

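With all 6 libraries and an adjusted p of 0.05, edgeR called 0 genes in either direction, while DESeq2 called 461 higher and 52 lower (members: 1 higher, Dusp10), limma-voom with sample quality weights 35 and 1, edgeR with no filter 205 and 9 (members: 1 higher, Dusp10, adjusted p = 0.0356), and edgeR at an adjusted p of 0.1 gave 28 and 2. Leaving out each library in turn, edgeR called 0 to 164 higher and 0 to 12 lower, the upper end of both without hyperoxia replicate 1, and 0 members. DESeq2 without each library in turn, added after seeing the data, called, in the order hyperoxia 1, 2, 3 then normoxia 1, 2, 3 left out, 836, 409, 406, 227, 195 and 410 higher and 276, 63, 176, 17, 6 and 10 lower, with 1 to 2 members higher (Dusp10 each time, Dusp16 without hyperoxia replicate 2) and 0 to 1 lower (Dusp5 without hyperoxia replicate 1, Dusp2 without hyperoxia replicate 3). Of the 8 log2 differences, those of Dusp7 and Dusp6 changed sign. Over the left-out libraries edgeR gave -0.23 to 0.55 for Dusp7, negative without hyperoxia replicate 2 (DESeq2 -0.26), and -0.43 to 0.12 for Dusp6, positive without hyperoxia replicate 3 (DESeq2 0.15) and, at 0.06, without normoxia replicate 1. Differences in share of the family total, in percentage points, ranged over the left-out libraries from -0.724 to 0.371 for Dusp1 (0.0502 with the length of the principal transcript, added after seeing the data), from -1.63 to 0.141 for Dusp2, from -0.0600 to 0.786 for Dusp5 and from -0.000741 to 0.0319 for Dusp7. With that length for the genes that have one, and all TPM rescaled to the same sum, the normoxia means were 21391 TPM for Dusp1, 564 TPM for Dusp5, 2.96 TPM for Dusp7 and 11.4 TPM for Dusp16 (for Dusp5 and Dusp16, whose own length did not change, through the rescaling), and Dusp2 and Dusp6 then no longer overlapped. The causes of these changes were not tested. No paired analysis was possible because the labels carry no replicate numbers. Depth limits Dusp4 most, at 13 to 55 counts a library, and then Dusp10, at 19 to 228.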
